A study of Homo sapiens with 30 samples.

Results

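The 10 genes described here are known targets of the transcription factor NRF2 and were chosen by name. HMOX1, FTH1 and FTL handle heme and iron, and SLC7A11, GCLM, GCLC, TXNRD1, NQO1, SRXN1 and OSGIN1 were grouped as thiol and redox genes. These 7 are called the thiol genes below, although NQO1 reduces quinones and OSGIN1 encodes a growth inhibitor. All 10 were found among the 60675 genes of the count table, and all 10 were among the 17839 genes that passed the filter on low counts. They were followed in 30 RNA-seq libraries of SW1783, an established human astrocytoma line, after 24 h with a herbal extract or with the vehicle, 0.1% DMSO per the sample labels (the series' design text gives a higher share). The vehicle group had 3 libraries. Palmul-tang and Sibjeondaebo-tang, formulas of traditional Korean medicine extracted with water, were given at 20, 100 or 500 µg/mL, and each dose had 3 libraries. Samul-tang, whose herbs are part of Palmul-tang, was a water extract too and had 1 library at each dose. Ethanol extracts of the single drugs Poria Cocos and Atractylodis Rhizoma also had 1 library at each dose. The comparisons asked which extract raised the heme and iron genes and which raised the thiol genes.

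NRF2 is held at a low level by KEAP1, an adaptor that marks it for destruction, until oxidants or electrophiles modify KEAP1 and NRF2 reaches the nucleus. There it pairs with small MAF proteins and binds antioxidant response elements. HMOX1 is in addition held down by the repressor BACH1, which heme removes, and the ferritin messages carry an iron responsive element through which iron controls their translation. In astrocytes this program is known for supplying glutathione and its precursors to neighbouring cells.

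Promoter windows from RefSeq (GRCh38.p14), each reaching from 250 bases before to 50 bases after a start site, were found for 7 of the 10 genes, in 8 windows. HMOX1, FTH1 and SLC7A11 were not matched. The antioxidant response element was searched as TGACNNNGC, where N is any base, on both strands. It was in the windows of GCLM and TXNRD1, and it was not in those of FTL, GCLC, NQO1, SRXN1 and OSGIN1. Of all 35116 windows of 300 bases, 13.3% held it. The same letters followed by an A, a longer form that contains the shorter one, was in 3.18% of all windows, in that of GCLM and in that of the TXNRD1 start site at 104287032. The 250 bases before these start sites are shown because GCLM and TXNRD1 are the members with a match, with the shorter form in capitals and on the reverse strand in both. The GCLM stretch is chr1:93909431-93909680 on the minus strand and the TXNRD1 stretch chr12:104286782-104287031 on the plus strand. A window of 30 bases around the element had 19 of 30 bases in common between them. The windows were aligned on the element, so its fixed bases match by design, and no background was counted for this likeness. The other TXNRD1 window, of the start site at 104215779, held the shorter form once on each strand and is not shown. For FTL the 30 bases at chr19:48965329-48965358 on the plus strand are shown, where the capitals mark CAGTG, the loop of the iron responsive element. On the gene's strand, 6.48% of all windows had CAGTG in the first 50 bases. A match is a description of the letters and not evidence of binding. A window without a match does not show that the gene lacks the element, since sequence beyond the window was not searched.
GCLM promoter: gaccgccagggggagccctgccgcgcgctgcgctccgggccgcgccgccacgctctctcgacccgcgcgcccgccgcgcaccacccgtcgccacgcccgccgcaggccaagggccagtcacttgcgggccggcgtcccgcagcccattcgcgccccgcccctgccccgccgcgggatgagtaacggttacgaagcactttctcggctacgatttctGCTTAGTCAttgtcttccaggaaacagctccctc
TXNRD1 promoter: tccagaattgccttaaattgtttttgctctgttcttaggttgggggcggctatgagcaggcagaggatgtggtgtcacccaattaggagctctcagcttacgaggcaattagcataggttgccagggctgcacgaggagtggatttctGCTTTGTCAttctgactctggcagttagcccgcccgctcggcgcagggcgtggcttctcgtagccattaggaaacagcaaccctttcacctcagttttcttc
FTL start: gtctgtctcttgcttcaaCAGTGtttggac

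Total counts ran from 22.57 M to 37.82 M per library, and genes of the mitochondrial chromosome took 6.43% to 7.67% of them. Of the astrocyte and glioma markers looked at, GFAP, S100B, AQP4 and ALDH1L1 stayed at or below 0.183 CPM in every library. CPM are counts scaled to library size, with TMM. SLC1A2 stayed at or below 0.521 CPM. The others were higher in every library. SLC1A3 had at least 20.6 CPM, with a median of 24.1, and NES at least 5.25 CPM, with a median of 6.06. VIM stood at 4388 to 5671 CPM and SOX9 at 59.9 to 84.0 CPM. Whether the libraries within a group are separate cultures is not stated, so every p-value measures only the spread between these libraries. The sample descriptions number the vehicle, Samul-tang, the larger formulas and the single drugs in separate sets, so set and treatment cannot be told apart in comparisons across them. Between 25.1% and 29.1% of all genes tested were called in each comparison with vehicle, against 5.3% between 500 and 20 µg/mL of Palmul-tang. Lying apart from all vehicle libraries was common too. In each group of 1 library, 33.6% to 36.5% of all genes were above them and 33.7% to 35.5% below. In each group of 3 libraries these shares were 17.3% to 20.7% and 17.9% to 21.8%. For how many of all genes the libraries of a formula at its highest and lowest dose did not overlap was not counted. Water and ethanol extraction likewise cannot be told apart from the difference between formulas and single drugs.

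Per kilobase of exon, ferritin was far above the other members in vehicle. FTL stood at 1298 RPKM and FTH1 at 673 RPKM. TXNRD1 followed at 43.5, NQO1 at 39.6, SRXN1 at 36.1 and HMOX1 at 32.6 RPKM, an order whose neighbours are close. GCLM had 17.0, SLC7A11 10.5, OSGIN1 4.75 and GCLC 4.26 RPKM. Within groups, the log2 CPM of NQO1 had the smallest pooled SD of the 10, 0.020, and that of OSGIN1 the widest, 0.11.

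Some of these genes share their place with another gene or have close copies, and whether the counting used the strand is not given in the sources used here. On the opposite strand FTH1 overlaps BEST1, SLC7A11 its antisense gene and NQO1 AC092115.2, whose counts came to 0.680%, 1.20% and 0.694% of the member's own. The 25 annotated FTH1 pseudogenes had 0.189% of its counts and the 16 of FTL 0.0340%, so both ferritin values carry that uncertainty. SRXN1 shares exons on its own strand with AL121758.1, which was listed with 0 counts, so the division of reads between them is uncertain.

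**Figure D1:**
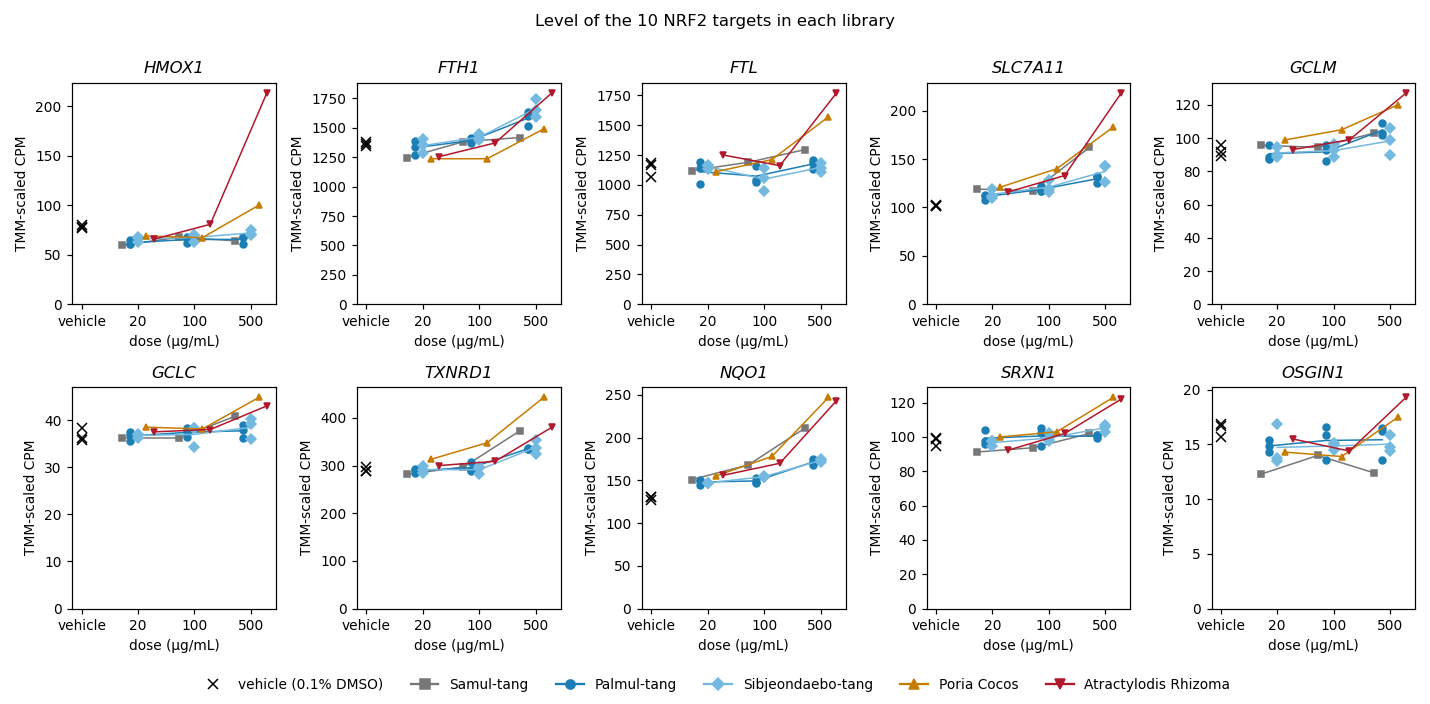
Each panel plots the TMM-scaled CPM of 1 gene (vertical axis, from 0) against dose in µg/mL on a log scale with vehicle at the left; points are single libraries and lines join the group means of an extract. HMOX1 reaches 213 CPM in the Atractylodis Rhizoma library at 500 µg/mL and at most 100 CPM in any other library, whereas NQO1 is above the vehicle libraries in all libraries with an extract.

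HMOX1 (ENSG00000100292, chromosome 22, 35380361 to 35394214, GRCh38), which breaks heme down to iron, biliverdin and carbon monoxide, was below vehicle with the formulas and far above it in 1 library. The vehicle libraries had 77.8, 80.3 and 77.4 CPM. At 20 µg/mL Palmul-tang had 60.5, 64.9 and 60.4 CPM and Sibjeondaebo-tang 68.3, 63.0 and 66.5. All 6 of these were below all 3 vehicle libraries, where 20.5% of all genes tested were in each of these groups. At 500 µg/mL Palmul-tang had 68.3, 67.4 and 60.8 CPM. Sibjeondaebo-tang at that dose had 70.1, 70.9 and 75.2 CPM. None of them reached the lowest vehicle library, and at 100 µg/mL neither formula passed 69.7 CPM. Below all vehicle libraries at 500 µg/mL were 21.8% of all genes tested in Palmul-tang and 17.9% in Sibjeondaebo-tang. The 3 Samul-tang libraries, at 500, 100 and 20 µg/mL, had 64.1, 67.6 and 59.6 CPM. In Poria Cocos the level was 68.9 CPM at 20, 67.2 at 100 and 100 at 500 µg/mL. In Atractylodis Rhizoma it was 65.7, 80.7 and 213 CPM in the same order. HMOX1 thus stood above all vehicle libraries only in both single drugs at 500 µg/mL and in Atractylodis Rhizoma at 100 µg/mL, where 80.7 CPM was close to the highest vehicle library. The value of 213 CPM rests on 5904 counts, and the ratio of 500 to 20 µg/mL in Atractylodis Rhizoma, 3.23-fold, was at the 99.5 percentile of all genes tested, against 1.46-fold in Poria Cocos and 1.07-fold in Samul-tang. These single libraries have no replicate, and their ratios were not tested.

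Against vehicle, HMOX1 fell by 0.30 ± 0.041 (log2, SE) with the formulas at 20 µg/mL, which is 1.23-fold lower (edgeR's quasi-likelihood test, Benjamini-Hochberg, adjusted p = 1.05e-06). It fell by 0.26 ± 0.048 with Palmul-tang at 500 µg/mL (edgeR, adjusted p = 6.95e-05) and by 0.30 ± 0.048 over the 3 doses of Samul-tang (edgeR, adjusted p = 1.14e-05). With Sibjeondaebo-tang at 500 µg/mL the difference was -0.12 ± 0.047 and was not called (edgeR, adjusted p = 0.0518), though it was called without Sibjeondaebo-tang 500 µg/mL replicate 3 (adjusted p = 0.0183), with size factors of DESeq2 (adjusted p = 0.0459), with the replicate block (adjusted p = 0.0470) and in DESeq2's own test (adjusted p = 0.0424). Within the formulas no rise with dose was called: the difference between 500 and 20 µg/mL was 0.08 in Palmul-tang, with an interval from -0.02 to 0.18, and 0.13 in Sibjeondaebo-tang, with an interval from 0.03 to 0.22 before adjustment (edgeR, adjusted p = 0.442 and 0.114); the Sibjeondaebo-tang libraries at these doses did not overlap. The mean of the 3 Atractylodis Rhizoma doses was 0.41 ± 0.047 above vehicle, 1.33-fold (edgeR, adjusted p = 3.72e-08). That call turned without the library at 500 µg/mL, to -0.11 (adjusted p = 0.144). The mean of the 3 Poria Cocos doses differed by -0.02 ± 0.047 (edgeR, adjusted p = 0.822), and without its library at 500 µg/mL by -0.21 (adjusted p = 0.00387).

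FTH1 (ENSG00000167996, chromosome 11, 61959718 to 61967660), the ferritin chain that oxidizes iron for storage, rose with the dose of both larger formulas. Vehicle had 1383, 1366 and 1347 CPM. Palmul-tang had 1388, 1265 and 1338 CPM at 20 µg/mL and 1514, 1630 and 1600 at 500. Sibjeondaebo-tang had 1354, 1283 and 1409 CPM at 20 µg/mL and 1595, 1651 and 1742 at 500. The libraries at 500 µg/mL were all above those at 20 µg/mL and above vehicle. Above all vehicle libraries at that dose were 20.7% of all genes tested in Palmul-tang and 17.3% in Sibjeondaebo-tang. At 100 µg/mL Palmul-tang had 1415, 1373 and 1389 CPM, overlapping vehicle, and Sibjeondaebo-tang 1413, 1398 and 1449, all above it and overlapping its lowest dose. FTH1 rose 1.19-fold from 20 to 500 µg/mL of Palmul-tang, a log2 difference of 0.25 ± 0.037 (edgeR's quasi-likelihood test, Benjamini-Hochberg, adjusted p = 1.17e-05). In Sibjeondaebo-tang it rose 1.23-fold, 0.30 ± 0.037 (edgeR, adjusted p = 2.79e-07). At 20 µg/mL the formulas differed from vehicle by -0.03 (edgeR, adjusted p = 0.570). Samul-tang had 1247, 1382 and 1417 CPM from the lowest to the highest dose. In Poria Cocos FTH1 had 1237 CPM at both lower doses and 1490 at 500 µg/mL, and in Atractylodis Rhizoma 1254, 1371 and 1794 CPM. The Poria Cocos libraries at 20 and 100 µg/mL were below all vehicle libraries, and the Atractylodis Rhizoma library at 500 µg/mL was the highest of all 30.

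FTL (ENSG00000087086, chromosome 19, 48965301 to 48966878), the ferritin chain that helps to form the iron core, did not pass the test between doses of a formula or between a formula and vehicle. Vehicle had 1183, 1068 and 1168 CPM, and the 18 libraries of the larger formulas ran from 950 to 1208 CPM. These ranges overlap at every dose. From 20 to 500 µg/mL FTL differed by 0.08 in Palmul-tang, with an interval from -0.07 to 0.23, and by -0.01 in Sibjeondaebo-tang, with an interval from -0.15 to 0.14. Samul-tang had 1120, 1189 and 1295 CPM from the lowest to the highest dose. Poria Cocos had 1110, 1212 and 1570 CPM and Atractylodis Rhizoma 1250, 1161 and 1768 CPM in the same order. In both single drugs the library at 500 µg/mL was above every library of a formula. Over its 3 doses Atractylodis Rhizoma was 1.20-fold above vehicle (log2 0.26 ± 0.069, edgeR, adjusted p = 0.00866), which was 0.08 without the library at 500 µg/mL (adjusted p = 0.546). In Poria Cocos the difference of 0.17 ± 0.069 was not called (edgeR, adjusted p = 0.0803), but was called without its library at 20 µg/mL (0.28, adjusted p = 0.0153), in the fit on the compared groups (adjusted p = 0.000217), without the filter (adjusted p = 0.0148) and in DESeq2 (adjusted p = 0.0476).

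NF-kappa B also has FTH1 among its known targets. All 7 of the other NF-kappa B targets looked at rose from 20 to 500 µg/mL in each larger formula, where 2.83% and 3.45% of all genes did. Their median log2 difference was 1.25 in Palmul-tang and 1.37 in Sibjeondaebo-tang, against -0.001 and 0.001 over all genes tested. SOD2, the mitochondrial superoxide dismutase, had 112 ± 0.792 CPM (SD, n = 3) in vehicle and 326 ± 11.7 in Palmul-tang at 500 µg/mL. ICAM1, an adhesion molecule, had 68.3 ± 1.74 CPM in vehicle and 177 ± 2.33 in Palmul-tang at 500 µg/mL. In Poria Cocos and Atractylodis Rhizoma at 500 µg/mL, ICAM1 had 56.4 and 58.8 CPM and SOD2 119 and 131 CPM, so that ICAM1 was below and SOD2 above the vehicle mean there. FTH1 stood at 1490 and 1794 CPM in those same libraries. The part of NF-kappa B in the FTH1 levels was not tested.

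SLC7A11 (ENSG00000151012, chromosome 4, 138164097 to 138242349), the transporter that brings cystine into the cell for glutathione synthesis, was above vehicle in every extract. The vehicle libraries had 101, 101 and 103 CPM. Palmul-tang had 112, 113 and 108 CPM at 20 µg/mL and 131, 133 and 125 at 500. Sibjeondaebo-tang had 112, 119 and 110 CPM at 20 µg/mL and 143, 143 and 126 at 500. No extract library overlapped vehicle, and at 100 µg/mL the formulas had 116 to 128 CPM. Above all vehicle libraries were 17.3% to 20.7% of all genes in each larger-formula group and 33.6% to 36.5% in each single library. From the lowest to the highest dose, Samul-tang had 119, 117 and 162 CPM. Poria Cocos had 121, 140 and 183 CPM, and Atractylodis Rhizoma 116, 133 and 218 CPM. The step to 500 µg/mL was thus larger in the single libraries than in the formulas: the ratio of 500 to 20 µg/mL was 1.36-fold in Samul-tang, 1.51-fold in Poria Cocos and 1.88-fold in Atractylodis Rhizoma, with no test. In the formulas it was 1.17-fold in Palmul-tang (log2 0.23 ± 0.043, edgeR's quasi-likelihood test, Benjamini-Hochberg, adjusted p = 0.000492) and 1.20-fold in Sibjeondaebo-tang (0.27 ± 0.042, edgeR, adjusted p = 3.03e-05).

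ATF4, the transcription factor of the amino acid response, is known to raise SLC7A11 too. Of 13 genes of its list, ATF4 included, none rose and 3 fell from 20 to 500 µg/mL of Palmul-tang, and none rose and 2 fell in Sibjeondaebo-tang. Among all genes tested, 2.83% rose and 2.47% fell in the first, and 3.45% rose and 2.79% fell in the second. PHGDH, the first enzyme of serine synthesis, fell by 0.28 and 0.35 with these doses (edgeR, adjusted p = 0.000422 and 7.39e-06). Over its 3 doses Atractylodis Rhizoma was higher than the larger formulas for 5 of the 13 and lower for none, where 2.72% of all genes were higher. Against vehicle it was higher for 4 and lower for 3, where 12.4% and 15.3% of all genes were. Poria Cocos was higher than vehicle for 1 and lower for 8, where 12.1% and 15.3% were. These means rest on 1 library per dose. Poria Cocos was lower than Atractylodis Rhizoma for 6 of the 13 over the 3 doses, among them ASNS, which makes asparagine, by -0.36 (edgeR, adjusted p = 5.08e-05), and ATF4 itself by -0.21 (edgeR, adjusted p = 0.00102), where 0.701% of all genes tested were lower. None of the 6 was called in the compared groups alone or without the library at 500 µg/mL of either drug; ASNS was then at -0.18 and ATF4 at -0.09, each with an adjusted p of 1.00. For SLC7A11 the difference between these single drugs was -0.04 and not called, with an interval from -0.12 to 0.05. The part of ATF4 in the SLC7A11 levels was not tested.

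GCLM (ENSG00000023909, chromosome 1, 93885205 to 93909456) and GCLC (ENSG00000001084, chromosome 6, 53497341 to 53616970) encode the regulatory and the catalytic subunit of the enzyme that makes the first step of glutathione synthesis. GCLM had 89.0, 91.5 and 95.7 CPM in vehicle, 87.2, 96.0 and 88.6 in Palmul-tang at 20 µg/mL and 109, 102 and 103 at 500. In Sibjeondaebo-tang it had 90.0, 94.8 and 88.5 CPM at 20 µg/mL and 106, 98.9 and 90.0 at 500. Its libraries at 500 µg/mL were apart from those at 20 in Palmul-tang and overlapped them in Sibjeondaebo-tang, where replicate 3 was low. That library was unlike replicates 1 and 2 beyond GCLM. Over genes with at least 20 counts in a pair, the mean chi-square per gene was 8.144 and 7.421 against them, and 2.636 between them. The highest for any other pair within a group was 6.678, between Sibjeondaebo-tang 100 µg/mL replicates 1 and 2. GCLM rose 1.15-fold in Palmul-tang (log2 0.20 ± 0.051, edgeR, adjusted p = 0.0123), a call that was lost without replicate 1 at 500 µg/mL (adjusted p = 0.0870) and without replicate 1 or 3 at 20 µg/mL (adjusted p = 0.0882 and 0.0708). In Sibjeondaebo-tang the difference of 0.11 was not called (edgeR, adjusted p = 0.242), but was 0.17 and called without replicate 3 at 500 µg/mL (adjusted p = 0.0213). From the lowest to the highest dose GCLM had 98.9, 105 and 120 CPM in Poria Cocos and 93.1, 99.0 and 127 CPM in Atractylodis Rhizoma. Samul-tang had 95.7, 94.4 and 103 CPM in that order. All libraries of Poria Cocos were above vehicle, while those of Atractylodis Rhizoma at 20 µg/mL and of Samul-tang at 100 µg/mL lay within it and that of Samul-tang at 20 µg/mL was level with its highest library. GCLC moved least of the thiol genes, from 34.3 to 44.8 CPM over all 30 libraries, and had 35.8, 38.4 and 36.3 CPM in vehicle. At 500 µg/mL the libraries of Samul-tang, Poria Cocos and Atractylodis Rhizoma (40.8, 44.8 and 43.0 CPM), 2 of Sibjeondaebo-tang (40.3 and 39.1 CPM) and 1 of Palmul-tang (38.9 CPM) were above the highest vehicle library. At the lower doses 1 library was, that of Poria Cocos at 20 µg/mL (38.5 CPM).

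TXNRD1 (ENSG00000198431, chromosome 12, 104215779 to 104350305), thioredoxin reductase, keeps thioredoxin in its reduced form. Vehicle had 288, 298 and 289 CPM. Palmul-tang had 284, 291 and 293 CPM at 20 µg/mL and 335, 334 and 337 at 500. Sibjeondaebo-tang had 291, 299 and 285 CPM at 20 µg/mL and 353, 337 and 325 at 500. At 500 µg/mL all 6 libraries were above vehicle, and at 20 µg/mL they overlapped it. Of all genes tested, 20.7% in Palmul-tang and 17.3% in Sibjeondaebo-tang were above all vehicle libraries at 500 µg/mL. The rise from 20 to 500 µg/mL was 1.16-fold in both, 0.21 ± 0.034 in log2 in Palmul-tang (edgeR's quasi-likelihood test, Benjamini-Hochberg, adjusted p = 3.87e-05) and 0.21 ± 0.034 in Sibjeondaebo-tang (edgeR, adjusted p = 2.89e-05). From the lowest to the highest dose Samul-tang had 282, 297 and 373 CPM. Atractylodis Rhizoma had 300, 309 and 380 CPM, and Poria Cocos 313, 348 and 443 CPM. TXNRD1 was higher in Poria Cocos than in any other extract at each dose, and its library at 500 µg/mL was the highest of all 30.

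NQO1 (ENSG00000181019, chromosome 16, 69706996 to 69726951), which reduces quinones with NADPH or NADH, was above the vehicle libraries in all 27 extract libraries. In each larger-formula group 17.3% to 20.7% of all genes tested were above them as well, and in each single library 33.6% to 36.5%. The share above them in all 27 at once was not counted. The vehicle libraries had 130, 130 and 127 CPM. Palmul-tang had 149, 145 and 150 CPM at 20 µg/mL and 171, 168 and 175 at 500. Sibjeondaebo-tang had 147 CPM in each library at 20 µg/mL and 174, 171 and 175 at 500. The libraries at 500 µg/mL did not overlap those at 20 µg/mL, and none overlapped vehicle. At 100 µg/mL Palmul-tang had 147, 153 and 148 CPM, within reach of its lowest dose, and Sibjeondaebo-tang 154, 155 and 154. NQO1 rose 1.16-fold from 20 to 500 µg/mL of Palmul-tang (log2 0.21 ± 0.031, edgeR, adjusted p = 9.25e-06) and 1.18-fold in Sibjeondaebo-tang (0.24 ± 0.031, edgeR, adjusted p = 6.11e-07). From the lowest to the highest dose Samul-tang had 151, 168 and 211 CPM. Poria Cocos had 155, 178 and 247 CPM, and Atractylodis Rhizoma 156, 170 and 243 CPM. The single drugs at 500 µg/mL were highest and nearly equal, with Samul-tang next and both larger formulas below.

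The aryl hydrocarbon receptor also induces NQO1. Of 6 other genes of that receptor's list, AHR itself included, 3 rose and none fell from 20 to 500 µg/mL in each larger formula. Among all genes tested, 2.83% rose with the dose of Palmul-tang and 3.45% with that of Sibjeondaebo-tang. The medians of the 6 genes were 0.13 and 0.23. ALDH1A3, a retinaldehyde dehydrogenase, had 673 ± 4.01 CPM (SD, n = 3) in vehicle. At 500 µg/mL it had 977 ± 14.3 CPM in Palmul-tang, 1076 in Samul-tang, 1125 in Poria Cocos and 798 in Atractylodis Rhizoma. ALDH1A3 was higher in Poria Cocos than in Atractylodis Rhizoma by 0.30 over the 3 doses (edgeR, adjusted p = 3.27e-07), which was lost in the compared groups alone (adjusted p = 0.324) and without the library at 500 µg/mL of Poria Cocos or Atractylodis Rhizoma (0.20, adjusted p = 0.0878 and 0.0726), while NQO1 differed by 0.03, not called, with an interval from -0.03 to 0.09. The part of the receptor in the NQO1 levels was not tested.

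SRXN1 (ENSG00000271303, chromosome 20, 646615 to 653370), sulfiredoxin, restores overoxidized peroxiredoxins. OSGIN1 (ENSG00000140961, chromosome 16, 83948282 to 83966332) encodes the oxidative stress induced growth inhibitor. SRXN1 had 98.6, 99.1 and 94.8 CPM in vehicle and 94.6 to 107 CPM over the 18 libraries of the larger formulas, and stood at 123 CPM in Poria Cocos and 122 CPM in Atractylodis Rhizoma at 500 µg/mL. Those single libraries were above all others. In Sibjeondaebo-tang SRXN1 differed between 500 and 20 µg/mL by 0.12 ± 0.038 and was not called (edgeR, adjusted p = 0.0507), although the libraries did not overlap; DESeq2's test gave 0.0496 and the replicate block 0.0351. OSGIN1 had 16.9, 16.7 and 15.7 CPM in vehicle and 12.4, 14 and 12.3 CPM in Samul-tang at 500, 100 and 20 µg/mL, so that all Samul-tang libraries were below vehicle. Its highest library was Atractylodis Rhizoma at 500 µg/mL, with 19.3 CPM.

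**Figure D2:**
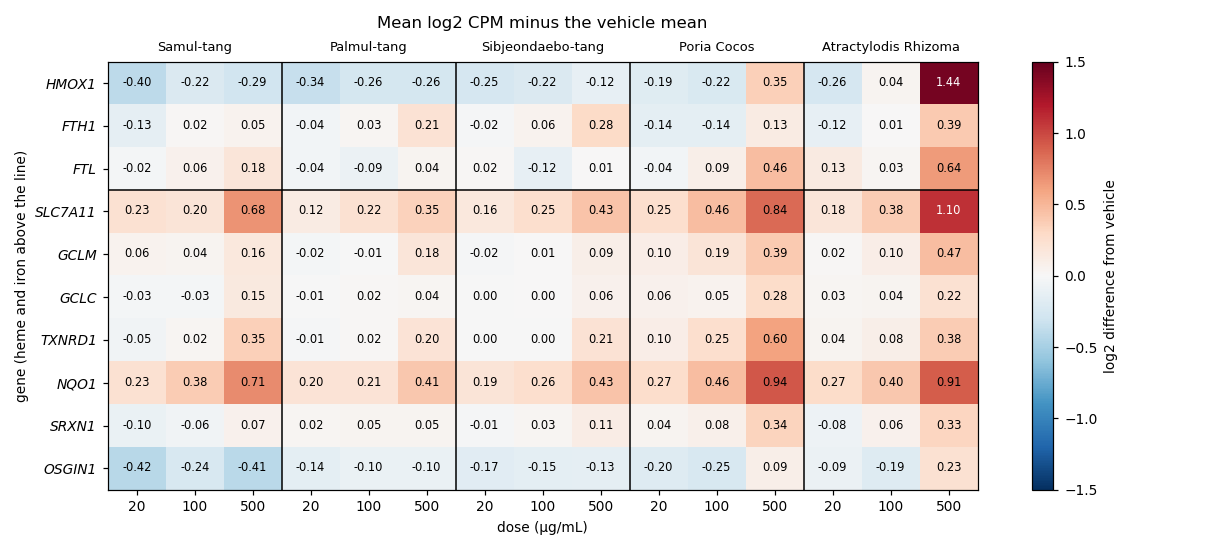
Rows are the genes and columns the extract and dose groups; each cell gives the mean log2 CPM of the group minus the vehicle mean (3 libraries per group for Palmul-tang and Sibjeondaebo-tang, 1 for the others). The HMOX1 row is below 0 in every group but 3, those of both single drugs at 500 µg/mL and Atractylodis Rhizoma at 100 µg/mL, and the SLC7A11 and NQO1 rows are above 0 throughout.

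Between 500 and 20 µg/mL of Palmul-tang, 5 of the 10 members were higher and none lower, where 5.3% of all genes tested were called, 2.83% higher and 2.47% lower. They were FTH1, SLC7A11, GCLM, TXNRD1 and NQO1, that is, 1 of 3 heme and iron genes and 4 of 7 thiol genes. The median log2 difference was 0.08 over the heme and iron genes, 0.20 over the thiol genes and -0.001 over all genes tested. In Sibjeondaebo-tang 4 members were higher and none lower, FTH1, SLC7A11, TXNRD1 and NQO1, where 6.24% of all genes were called, 3.45% higher and 2.79% lower. The medians there were 0.13 for the heme and iron genes and 0.12 for the thiol genes, against 0.001. No difference between the formulas in the change with dose was called for a member, nor for any gene tested (0% called by edgeR or by DESeq2, 716 genes at an unadjusted p under 0.05). The interval of that difference was from -0.09 to 0.19 for HMOX1, from -0.05 to 0.16 for FTH1 and from -0.06 to 0.12 for NQO1. Over all 3 doses, too, no member was called between Sibjeondaebo-tang and Palmul-tang, where 1 gene of all, or 0.00561%, was called; HMOX1 differed by 0.09, with an interval from 0.04 to 0.15 before adjustment.

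All comparisons with vehicle share its 3 libraries. With Palmul-tang at 500 µg/mL, 5 members were higher (FTH1, SLC7A11, GCLM, TXNRD1 and NQO1) and HMOX1 was lower, where 27.8% of all genes were called, 12.9% higher and 14.9% lower. GCLM was 1.13-fold higher (log2 0.18 ± 0.051, edgeR, adjusted p = 0.00811), a call lost without vehicle replicate 1 (adjusted p = 0.0568) or Palmul-tang 500 µg/mL replicate 1 (adjusted p = 0.0560). With Sibjeondaebo-tang at 500 µg/mL, 5 members were higher (FTH1, SLC7A11, TXNRD1, NQO1 and SRXN1) and none lower, where 25.1% of all genes were called, 11.7% higher and 13.3% lower. SRXN1 was 1.08-fold higher (0.11 ± 0.039, edgeR, adjusted p = 0.0360) and lost its call without any of the vehicle replicates 1, 2 and 3 or without Sibjeondaebo-tang 500 µg/mL replicate 1 or 3 (adjusted p = 0.0679, 0.0506, 0.162, 0.0985 and 0.0621), and in the compared groups alone (adjusted p = 0.0691). With the formulas at 20 µg/mL, 2 were higher, SLC7A11 by 1.10-fold and NQO1 by 1.14-fold, and HMOX1 was lower (edgeR, adjusted p = 0.00404, 1.27e-06 and 1.05e-06), where 29.1% of all genes were called, 13.1% higher and 15.9% lower. OSGIN1 differed by -0.15 there and was not called (edgeR, adjusted p = 0.114), but was called at -0.21 without Sibjeondaebo-tang 20 µg/mL replicate 1 (adjusted p = 0.0191). HMOX1, SLC7A11 and NQO1 thus already differed from vehicle at the lowest dose, where the numbering of the samples differs from that of vehicle as well.

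Over the 3 Samul-tang doses, SLC7A11, TXNRD1 and NQO1 were higher than vehicle and HMOX1 and OSGIN1 lower, where 27.7% of all genes were called, 12% higher and 15.7% lower. NQO1 was 1.36-fold higher (log2 0.44 ± 0.031, edgeR's quasi-likelihood test, Benjamini-Hochberg, adjusted p = 4.03e-12) and OSGIN1 1.28-fold lower (-0.36 ± 0.085, edgeR, adjusted p = 0.00162). TXNRD1, 1.08-fold higher (edgeR, adjusted p = 0.0154), was at -0.01 without the Samul-tang library at 500 µg/mL (adjusted p = 0.866) and lost its call without vehicle replicate 1 or 3 (adjusted p = 0.0722 and 0.0503).

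Over the 3 Poria Cocos doses, 6 members were higher than vehicle and none lower, where 27.3% of all genes were called, 12.1% higher and 15.3% lower. All 6 were thiol genes: NQO1 (1.47-fold), SLC7A11 (1.43-fold), TXNRD1 (1.25-fold), GCLM (1.17-fold), SRXN1 (1.11-fold) and GCLC (1.10-fold). The median log2 difference was -0.02 over the 3 heme and iron genes and 0.23 over the 7 thiol genes. Without the library at 500 µg/mL, GCLM stood at 0.14 (edgeR, adjusted p = 0.0671), GCLC at 0.06 (adjusted p = 0.538) and SRXN1 at 0.06 (adjusted p = 0.398), no longer called, while HMOX1 and FTH1 were called lower, at -0.21 (adjusted p = 0.00387) and -0.14 (adjusted p = 0.0102). GCLC lost its call also without vehicle replicate 1 or 3 (adjusted p = 0.177 and 0.128), without the filter (adjusted p = 0.0630), under the replicate block (adjusted p = 0.0822) and in DESeq2 (adjusted p = 0.0650).

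Over the 3 Atractylodis Rhizoma doses, 7 members were higher than vehicle and none lower, where 27.7% of all genes were called, 12.4% higher and 15.3% lower. They were HMOX1 and FTL of the heme and iron genes and SLC7A11 (1.47-fold), NQO1 (1.44-fold), GCLM (1.15-fold), TXNRD1 (1.12-fold) and SRXN1 (1.07-fold) of the thiol genes. The median was 0.26 over the heme and iron genes and 0.17 over the thiol genes. Without the library at 500 µg/mL, SLC7A11 and NQO1 kept their calls, and HMOX1 (-0.11, edgeR, adjusted p = 0.144), FTL (0.08, adjusted p = 0.546), GCLM (0.06, adjusted p = 0.530), TXNRD1 (0.06, adjusted p = 0.306) and SRXN1 (-0.01, adjusted p = 0.912) did not. SRXN1 lost its call also without each vehicle replicate (adjusted p = 0.0758, 0.0558 and 0.168), without the filter (adjusted p = 0.0502) and under the replicate block (adjusted p = 0.0642). FTH1, at 0.09, was not called (edgeR, adjusted p = 0.0603) but was called without the library at 100 or 20 µg/mL (adjusted p = 0.0141 and 0.000306), without the filter (adjusted p = 0.0334), in the compared groups alone (adjusted p = 0.00831) and in DESeq2 (adjusted p = 0.0466).

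The single drugs differed from each other in 3 members over the matched doses, where 1.42% of all genes tested were called. Poria Cocos was lower than Atractylodis Rhizoma in HMOX1, 1.34-fold (log2 -0.43 ± 0.046, edgeR's quasi-likelihood test, Benjamini-Hochberg, adjusted p = 2.09e-07), and in FTH1, 1.11-fold (-0.15 ± 0.037, edgeR, adjusted p = 0.0365), where 0.701% of all genes tested were lower. It was higher in TXNRD1, 1.11-fold (0.15 ± 0.034, edgeR, adjusted p = 0.0140), where 0.718% were higher. Each drug has 1 library per dose, so the spread is that of the other groups. In a fit on these 6 libraries alone, none of the 3 was called (adjusted p = 0.742, 0.373 and 0.340 for HMOX1, FTH1 and TXNRD1). That fit had dose and drug as separate effects, so a drug difference that changed with dose counted as spread. A call lost there therefore does not decide whether the drugs differ at 500 µg/mL. Without the dose of 500 µg/mL of either drug, HMOX1 was at -0.10, FTH1 at -0.08 and TXNRD1 at 0.12, each with an adjusted p of 1.00. FTH1 and TXNRD1 lost their calls as well without the Poria Cocos library at 100 µg/mL (adjusted p = 0.146 and 0.106) or that of Atractylodis Rhizoma (adjusted p = 0.139 and 0.11). At 500 µg/mL alone HMOX1 was 2.12-fold, FTH1 1.20-fold, SLC7A11 1.19-fold and FTL 1.13-fold higher in Atractylodis Rhizoma, and TXNRD1 was 1.16-fold higher in Poria Cocos. NQO1 and SRXN1 were within 1.02-fold of each other in those libraries. The HMOX1 ratio was at the 98.6 percentile of all genes tested, and the others between the 16.1 and the 85.7 percentile.

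**Figure D3:**
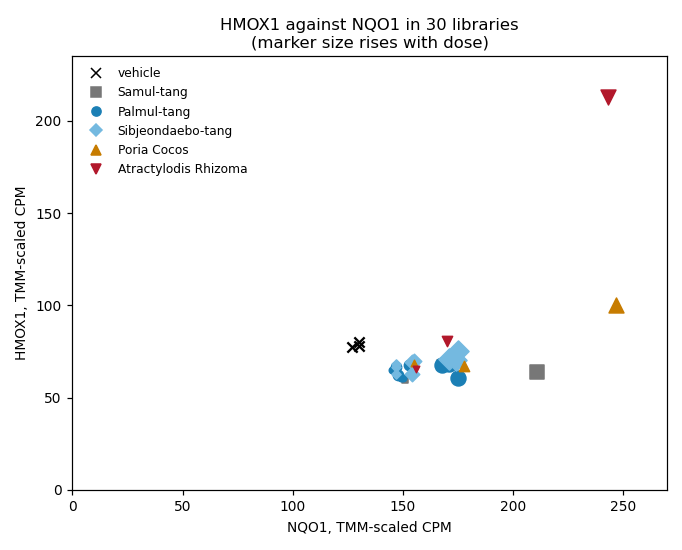
Each point is 1 of 30 libraries, with NQO1 on the horizontal and HMOX1 on the vertical axis, both in TMM-scaled CPM and from 0; larger markers are higher doses. The Samul-tang, Poria Cocos and Atractylodis Rhizoma libraries at 500 µg/mL lie at 211, 247 and 243 CPM of NQO1 but at 64.1, 100 and 213 CPM of HMOX1.

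Compared with the larger formulas over the matched doses, Poria Cocos was higher in 7 members and lower in FTH1, where 4.08% of all genes were called, 1.6% higher and 2.48% lower. The size was 1.21-fold for NQO1, 1.20-fold for SLC7A11, 1.19-fold for TXNRD1, 1.17-fold for HMOX1, 1.15-fold for FTL, 1.14-fold for GCLM and 1.08-fold for SRXN1, and 1.10-fold lower for FTH1. NQO1 and TXNRD1 kept their calls without each library in turn. The other 6 lost theirs without the Poria Cocos library at 500 µg/mL: HMOX1 at 0.06 (edgeR, adjusted p = 0.780), FTL at 0.08 (adjusted p = 0.824), SLC7A11 at 0.17 (adjusted p = 0.0666), GCLM at 0.16 (adjusted p = 0.253), SRXN1 at 0.04 (adjusted p = 0.873) and FTH1 at -0.15 (adjusted p = 0.0590). FTH1 was also lost without the library at 100 µg/mL (adjusted p = 0.0706). FTL, whose adjusted p was 0.0397, lost its call without the Poria Cocos library at 100 µg/mL (adjusted p = 0.130), and without any of 9 of the 18 formula libraries (adjusted p from 0.0525 to 0.0579), and under the replicate block (adjusted p = 0.108), as did SRXN1 under the block (adjusted p = 0.0501).

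Atractylodis Rhizoma was higher than the larger formulas in 6 members and lower in none, where 6.23% of all genes were called, 2.72% higher and 3.51% lower. HMOX1 led with 1.57-fold (log2 0.65 ± 0.034, edgeR, adjusted p = 3.59e-16), followed by SLC7A11 and FTL at 1.23-fold, NQO1 at 1.19-fold, GCLM at 1.11-fold and TXNRD1 at 1.07-fold. Without the library at 500 µg/mL, NQO1 kept its call and HMOX1 stood at 0.16 (edgeR, adjusted p = 0.134), FTL at 0.14 (adjusted p = 0.739), SLC7A11 at 0.09 (adjusted p = 0.622), GCLM at 0.07 (adjusted p = 0.872) and TXNRD1 at 0.06 (adjusted p = 0.756). TXNRD1 lost its call under the replicate block too (adjusted p = 0.0559). SRXN1, at 0.06 and not called (edgeR, adjusted p = 0.237), was called at 0.14 without the library at 20 µg/mL (adjusted p = 0.0100). Samul-tang was higher than the larger formulas in NQO1, 1.12-fold (0.16 ± 0.023, edgeR, adjusted p = 2.38e-05), and lower in FTH1, 1.08-fold (-0.11 ± 0.029, edgeR, adjusted p = 0.0340), where 2.32% of all genes were called, 0.813% higher and 1.51% lower. NQO1 was at 0.10 without the Samul-tang library at 500 µg/mL (adjusted p = 0.266) and FTH1 at -0.06 (adjusted p = 0.739). FTH1 was lost also without the Samul-tang library at 20 µg/mL (adjusted p = 0.105) and without any of 5 formula libraries (adjusted p from 0.0507 to 0.0562), and in the compared groups alone (adjusted p = 0.0585). SLC7A11, at 0.11 (edgeR, adjusted p = 0.0686), was called under the replicate block (0.16, adjusted p = 0.00253) and without the Samul-tang library at 100 µg/mL (0.19, adjusted p = 0.00585). OSGIN1, at -0.23 and not called (edgeR, adjusted p = 0.0623), was called without the filter (adjusted p = 0.00882).

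**Figure D4:**
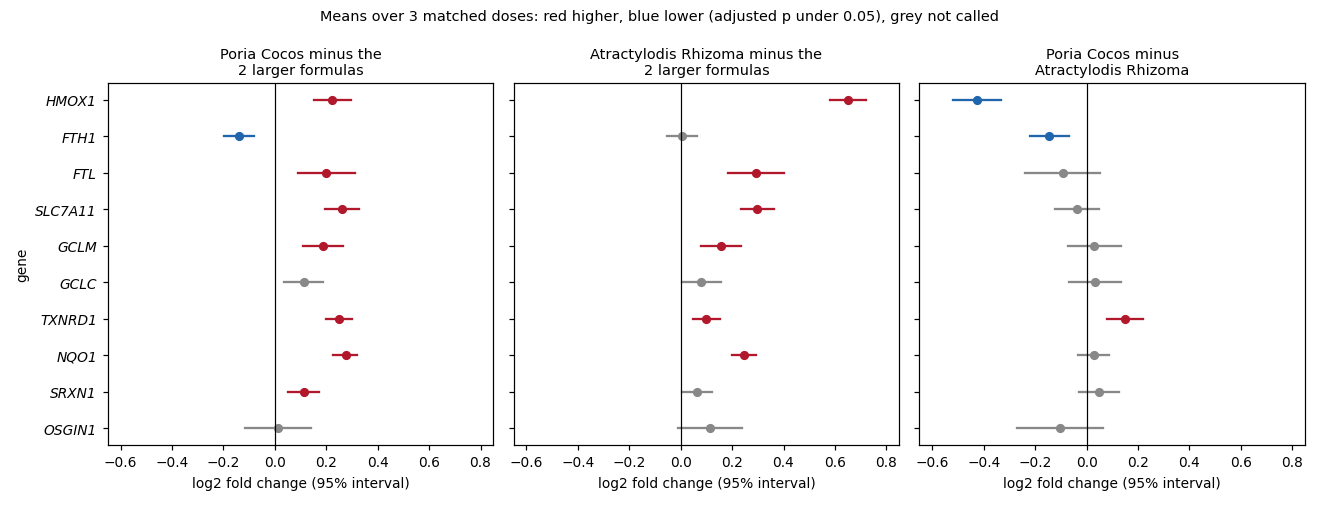
Each point is the log2 fold change of a gene between means over the 3 matched doses, with its 95% interval; red is higher and blue lower at an adjusted p under 0.05, grey not called. HMOX1 is higher in Atractylodis Rhizoma than in the larger formulas by 0.65 and lower in Poria Cocos than in Atractylodis Rhizoma by 0.43, while TXNRD1 is higher in Poria Cocos in both of its panels.

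Set beside each other at 500 µg/mL, the median log2 difference from vehicle over HMOX1, FTH1 and FTL was 0.64 in Atractylodis Rhizoma, 0.35 in Poria Cocos, 0.05 in Samul-tang, 0.05 in Palmul-tang and 0.01 in Sibjeondaebo-tang. Over the 7 thiol genes it was 0.38, 0.39, 0.16, 0.18 and 0.11 in the same order. The median over all genes tested was between -0.000 and 0.009 in these groups. At 20 µg/mL the heme and iron median was between -0.14 and -0.02, and the thiol median between -0.03 and 0.10, the latter in Poria Cocos. Past 1.25-fold from 20 to 500 µg/mL in the single libraries were 9 members in Atractylodis Rhizoma, 5 in Poria Cocos and 3 in Samul-tang, all upward, where 10.4%, 10.4% and 11.1% of all genes tested were. The 3 in Samul-tang were SLC7A11, TXNRD1 and NQO1. GCLC was the member below that ratio in Atractylodis Rhizoma. These counts depend on the ratio chosen. In Poria Cocos SRXN1 (1.23-fold), GCLM and OSGIN1 (1.22-fold each) and FTH1 (1.21-fold) were close below it. In Atractylodis Rhizoma OSGIN1, at 1.25-fold after rounding, was barely past it.

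Of 17 other heme and iron genes tested, 5 rose and none fell from 20 to 500 µg/mL of Palmul-tang, with a median of 0.04, and 4 rose in Sibjeondaebo-tang. Among all genes tested, 2.83% rose and 2.47% fell with the dose of Palmul-tang, and 3.45% rose and 2.79% fell with that of Sibjeondaebo-tang. SLC39A14, an importer of iron and zinc, rose by 0.22 and 0.26 (edgeR's quasi-likelihood test, Benjamini-Hochberg, adjusted p = 0.00024 and 1.62e-05), and ACO1, the iron regulatory protein that binds ferritin messages, by 0.17 and 0.30 (edgeR, adjusted p = 0.0055 and 1.08e-06). ALAS1, which starts heme synthesis, rose by 0.16 and 0.25 (edgeR, adjusted p = 0.0159 and 7.34e-05), the first of these lost without Palmul-tang 20 µg/mL replicate 2 or 3 or 500 µg/mL replicate 1 or 2 (adjusted p = 0.121, 0.0814, 0.0643 and 0.0528). Poria Cocos was lower than Atractylodis Rhizoma in 1 of the 17, SLC39A14, by -0.18 (edgeR, adjusted p = 0.0155), where 0.701% of all genes tested were lower. That call was lost in the compared groups alone (adjusted p = 0.605) and without the library at 500 µg/mL of either drug (-0.04, adjusted p = 1.00).

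Of 20 other glutathione genes, 1 rose and 3 fell with the dose of Palmul-tang and 1 rose and 4 fell with that of Sibjeondaebo-tang, with medians of -0.05 and -0.01. The shares over all genes were 2.83% up and 2.47% down in Palmul-tang, and 3.45% up and 2.79% down in Sibjeondaebo-tang. GPX1, a glutathione peroxidase, fell by 0.46 and 0.45 (edgeR, adjusted p = 4.06e-05 and 3.80e-05), and MGST1, a microsomal glutathione transferase, rose by 0.21 and 0.17 (edgeR, adjusted p = 0.000496 and 0.00458), the second lost in the compared groups alone (adjusted p = 0.0767). Against the larger formulas, Atractylodis Rhizoma was higher in 5 of the 20, where 2.72% of all genes were. Among the 5 was GSR, glutathione reductase, by 0.12 (edgeR, adjusted p = 0.0120). Without the Atractylodis Rhizoma library at 500 µg/mL none of the 20 was higher, and GSR was at 0.06 (adjusted p = 0.842).

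Of 17 quinone, carbonyl and NADPH genes, Atractylodis Rhizoma was higher than the larger formulas in 9 and lower in 1, with a median of 0.11. In that comparison 2.72% of all genes tested were higher and 3.51% lower. AKR1B10, an aldo-keto reductase, was higher by 0.64 (edgeR, adjusted p = 1.38e-06), AKR1C1 by 0.27 (edgeR, adjusted p = 0.000279) and ME1, malic enzyme, which yields NADPH, by 0.25 (edgeR, adjusted p = 0.00108). Poria Cocos was higher than the larger formulas in 3 and lower in 1, where 1.6% of all genes tested were higher and 2.48% lower. AKR1B10 was higher there by 0.61 (edgeR, adjusted p = 4.80e-06). Without the library at 500 µg/mL of the drug compared, none of the 17 was called in either; AKR1B10 was at 0.30 in Atractylodis Rhizoma (adjusted p = 0.403) and 0.32 in Poria Cocos (adjusted p = 0.330), AKR1C1 at 0.15 (adjusted p = 0.593) and ME1 at 0.15 (adjusted p = 0.542). AKR1B1, aldose reductase, behaved otherwise: it rose by 0.41 and 0.59 from 20 to 500 µg/mL of the larger formulas and was lower in both single drugs than in those formulas, by -0.19 in Poria Cocos and by -0.12 in Atractylodis Rhizoma (edgeR, adjusted p = 7.58e-10, 7.91e-14, 7.80e-05 and 0.00759). The differences of AKR1B1 from the formulas were likewise lost without the library at 500 µg/mL of Poria Cocos (adjusted p = 0.692) or Atractylodis Rhizoma (adjusted p = 0.748), and for the latter without that at 100 µg/mL (adjusted p = 0.0859).

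Of 15 genes for NRF2 and its regulators, 4 rose and none fell with the dose of each larger formula. Among all genes tested, 2.83% rose with the dose of Palmul-tang and 3.45% with that of Sibjeondaebo-tang. Against vehicle, 5 were higher and 4 lower with Palmul-tang at 500 µg/mL, where 12.9% and 14.9% of all genes were. Over its 3 doses Poria Cocos was higher than vehicle for 2 and lower for 6, where 12.1% and 15.3% were. Atractylodis Rhizoma was higher for 4 and lower for 1, where 12.4% and 15.3% were. SQSTM1, an autophagy receptor that binds KEAP1, rose by 0.22 and 0.15 (edgeR, adjusted p = 5.49e-05 and 0.00564), the second lost in the compared groups alone (adjusted p = 0.105) and without Sibjeondaebo-tang 20 µg/mL replicate 2 or 500 µg/mL replicate 3 (adjusted p = 0.0614 and 0.0668). SQSTM1 was lower in Poria Cocos than in Atractylodis Rhizoma by -0.36 (edgeR, adjusted p = 5.16e-08), with 463 against 791 CPM at 500 µg/mL. That call was lost in the compared groups alone (adjusted p = 0.664) and without the library at 500 µg/mL of Poria Cocos or Atractylodis Rhizoma (-0.14, adjusted p = 0.924 and 0.921). PIR, an iron-binding nuclear protein, was higher than in the larger formulas by 0.16 in Poria Cocos and 0.22 in Atractylodis Rhizoma (edgeR, adjusted p = 0.0322 and 0.000926). Both calls of PIR were lost without the library at 500 µg/mL of the drug (0.06, adjusted p = 0.847 and 0.912), and that in Poria Cocos without its library at 100 µg/mL (adjusted p = 0.102), without the filter (adjusted p = 0.0552) and in DESeq2 (adjusted p = 0.0676). The message of NRF2 itself, NFE2L2, had 78.2 ± 1.64 CPM (SD, n = 3) in vehicle and 72.7 ± 2.63 in Palmul-tang at 500 µg/mL, its lowest group mean, and KEAP1 48.8 ± 2.07 and 42.4 ± 1.01 in the same groups. NFE2L2 was lower than vehicle (log2 -0.11) with Palmul-tang at 500 µg/mL (edgeR, adjusted p = 0.0384), a call lost without vehicle replicate 1 or 2 or Palmul-tang 500 µg/mL replicate 1 or 3 (adjusted p = 0.133, 0.0789, 0.177 and 0.0683) and without the filter (adjusted p = 0.104).

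Across the 16 group means, SLC7A11 and NQO1 ran closest together among the members (Pearson's r = 0.966, Spearman's rho = 0.918). GCLC and TXNRD1 came next with r = 0.944 (rho = 0.903), SLC7A11 and GCLM had r = 0.943, and TXNRD1 and NQO1 r = 0.925. HMOX1 followed FTL with r = 0.849 but rho = 0.344, and NQO1 with r = 0.662 and rho = 0.388. These are descriptions over 16 means, 9 of them of 1 library, scaled together, with no test. Over 10279 genes, the one whose means were most like those of HMOX1 was PLIN2, a lipid droplet protein (r = 0.916, rho = 0.635), with 57.0 ± 0.525 CPM (SD, n = 3) in vehicle and 96.6 CPM in Atractylodis Rhizoma at 500 µg/mL. For FTH1 it was MGST1 (r = 0.958, rho = 0.938).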

How the data were processed

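RNA was read as paired 100-base reads after a strand-marking library kit, per the labels' protocols. The authors deposited expected counts per gene, and the submitters' processing notes name FastQC 0.11.9, Trim Galore 0.6.5, STAR 2.7.3a, RSEM 1.3.3 and the build hg38. Of 279 columns, the 30 matching these libraries were used and the other 249 were not. Expected counts, 24% of whose values above 0 were not whole, were rounded. Genes were kept by filterByExpr (17839), scaled by TMM and fitted as 16 group means with edgeR 4.0.16 in R 4.3.3 (robust quasi-likelihood test), which gave 14 comparisons, each adjusted by Benjamini-Hochberg over all genes tested and called at 0.05; intervals are 95% and unadjusted. Groups of 1 library borrow the spread of the others. CPM are TMM-scaled, and log2 CPM use a prior count of 2. Positions are from GENCODE release 29. The members and 10 gene lists (117 genes) were chosen with earlier results of these data known. All members are named; from each other list, up to 4 called genes with the smallest p per comparison, and NF-kappa B, ATF4 and aryl hydrocarbon receptor genes beside the member sharing that inducer. The 5 most similar genes by Pearson's r were taken for HMOX1, FTH1, SLC7A11 and GCLM. Tested on data simulated for Palmul-tang at 500 against 20 µg/mL (17532 genes), the script recovered 80.6% of 1.25-fold, 97.0% of 1.5-fold and 98.5% of 2-fold changes, with 9 of 193 calls false. Alternatives were DESeq2 1.42.0 and its size factors, no filter, the compared groups alone, a replicate block, another prior count, and each library left out. Poria Cocos and Atractylodis Rhizoma alone were fitted with dose and drug as separate effects, so a drug difference that changed with dose counted as spread. A dose whose only library was left out was dropped from the mean, on both sides of a matched comparison.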

Additional observations from a re-analysis of the deposited data

How the results depend on the processing

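The 9 groups of 1 library have no replicate of their own, and the effect of depth was not tested. Of the 140 tests of a member, 139 kept direction and side of the threshold with DESeq2's size factors, 135 with DESeq2's test, 134 without the filter and 132 in the compared groups alone; of 1500 tests with 1 library left out, 1416 did. Without the library at 500 µg/mL, TXNRD1 in Samul-tang against vehicle turned to -0.012, and HMOX1 and SRXN1 in Atractylodis Rhizoma against vehicle to -0.109 and -0.010. With each library left out in turn these reached up to 0.187, 0.742 and 0.197, each without the library at 20 µg/mL. A dose whose only library was left out was dropped from the mean, so these values are means over the remaining doses. Why the doses differ was not tested.

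In the compared groups alone, 636 genes were called between 500 and 20 µg/mL of Sibjeondaebo-tang against 1113, and 1 between Poria Cocos and Atractylodis Rhizoma against 253. The fit on these single drugs counted a drug difference that changed with dose as spread. The difference in dose change had 12 calls without the filter against 0. Sibjeondaebo-tang against Palmul-tang had 1 call, 0 with size factors or the compared groups alone, 2 in DESeq2 and 11 without the filter.

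Same-numbered libraries correlated between -0.0786 and 0.179 after removal of the group means, and libraries of other numbers on average between -0.0869 and 0.0220. For Palmul-tang replicate 3 at 500 and 20 µg/mL these were 0.179 and -0.0869, and for Sibjeondaebo-tang replicate 1 -0.0786 and 0.0100. Deviations from a group mean cancel out within the group, so the second value largely follows from the first and is no separate comparison. These values do not settle whether replicate numbers pair the samples. With the replicate block, Palmul-tang at 500 against 20 µg/mL had 1036 calls against 946, Sibjeondaebo-tang 1258, and Sibjeondaebo-tang against Palmul-tang 3; 132 of 140 member tests kept their side.

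Leaving out 1 library gave 643 to 712 calls for the dose of Palmul-tang, 766 to 1163 for that of Sibjeondaebo-tang and 0 to 1 for their difference. Against vehicle it gave 3954 to 4233 (Palmul-tang), 3483 to 5168 (Sibjeondaebo-tang), 4006 to 5038 (formulas at 20 µg/mL), 3944 to 4592 (Samul-tang), 3887 to 4212 (Poria Cocos) and 3875 to 4380 (Atractylodis Rhizoma). It gave 0 to 2 for Sibjeondaebo-tang against Palmul-tang and 2 to 376 for Poria Cocos against Atractylodis Rhizoma. Against the larger formulas it gave 40 to 539 for Samul-tang, 44 to 925 for Poria Cocos and 66 to 1391 for Atractylodis Rhizoma, each lowest without the library at 500 µg/mL of the extract named.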

Other observations

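Of 13 other thioredoxin genes, 1 rose and 1 fell with the dose of Palmul-tang, where 2.83% of all genes tested rose and 2.47% fell. TXNIP, which binds and inhibits thioredoxin, stood apart in Poria Cocos. TXNIP had 10.0 ± 0.309 CPM (SD, n = 3) in vehicle and 8.41, 17.7 and 198 CPM at 20, 100 and 500 µg/mL of Poria Cocos. In Atractylodis Rhizoma it had 9.05, 8.17 and 6.41 CPM in the same order. Over the 3 doses TXNIP was 3.96-fold higher in Poria Cocos (log2 1.99, edgeR's quasi-likelihood test, Benjamini-Hochberg, adjusted p = 1.01e-18), with 1 library per dose. That call of TXNIP was lost in the compared groups alone (adjusted p = 0.695) and without the library at 500 µg/mL of Poria Cocos or Atractylodis Rhizoma (0.50, adjusted p = 0.0914 and 0.0726). TXNRD1 was highest in that same Poria Cocos library.

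GPX1, a glutathione peroxidase, was below its vehicle level of 212 ± 2.56 CPM (SD, n = 3) in every extract at 500 µg/mL. It had 129 ± 6.61 CPM in Palmul-tang, 131 ± 14.8 in Sibjeondaebo-tang, 115 in Samul-tang, 128 in Poria Cocos and 167 in Atractylodis Rhizoma. CBS, which starts the path from homocysteine to cysteine, had 10.1 ± 0.929 CPM in vehicle, 1.69 in Poria Cocos at 20 µg/mL and 2.97 in Samul-tang at 100 µg/mL. Its near-identical copy CBSL makes the CBS values uncertain.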
